A study of Mus musculus with 29 samples.

Results

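The signals of 10 genes of the Notch pathway were followed in podocytes sorted from mice before and after a podocyte toxin. They are the receptors Notch1, Notch2 and Notch3, the ligands Jag1, Jag2, Dll1 and Dner, and the target genes Hes1, Hey1 and Heyl. A member was any probe of the array whose RefSeq accession maps to one of these symbols, which gave 12 probes. All 10 genes passed a filter that asked for a probe well above background on 3 or more of the 29 arrays, as did 15626 genes in all. Notch1 and Notch2 each had 2 probes, and the brighter one was used.

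The samples came from 16 male Pod-hCD25T/G mice on the C57BL/6J background, 8 weeks of age, in which podocytes carry 1 of 2 fluorescent proteins, EGFP or TdTomato. LMB2, an immunotoxin that binds human CD25, was injected at 25 ng per g of body weight after heminephrectomy, per the labels. The labels do not say whether the mice taken at day 0, before the injection, had lost a kidney, and they do not name the colour that carries the toxin's target, the promoter behind the transgene or the sorting gates. TdTomato cells were sampled from 4 mice each at days 0, 1 and 4 and from 2 mice at day 7. EGFP cells were sampled from 4 mice each at days 0, 4 and 7 and from 3 mice at day 1. Both populations were available from 13 mice. Each sample was 1 mouse hybridised to 1 one-colour Agilent array, and every value is a log2 signal from which that array's 75th percentile was subtracted, so that 0 marks a bright probe. A level can be compared between samples for 1 probe but not between probes.

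Notch receptors are cut after a ligand on a neighbouring cell binds them, and the freed intracellular part enters the nucleus, where it joins the DNA-binding protein Rbpj and switches on genes of the Hes and Hey families. Jagged and Delta-like proteins are the classical ligands, and Dner is a membrane protein of neurons described as a non-classical one. Notch signalling helps to pattern the nephron during development and is low in resting adult podocytes, and forced Notch activity in podocytes is known to cause glomerular scarring.

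The promoters of the members with the largest rises among those matched are shown because these genes rose most in TdTomato cells. RefSeq start sites on GRCm38.p6 were matched for 7 of the 10 members, and Hes1, Hey1 and Heyl were not matched. The 250 bases before the start were searched on both strands for TGGGAA, the core that Rbpj binds, and for CACGNG, the element bound by Hes and Hey proteins. The sequences are written 5′ to 3′ along the gene, with each CACGNG match in capitals.
Dner (chr1:84696222-84696471, minus strand): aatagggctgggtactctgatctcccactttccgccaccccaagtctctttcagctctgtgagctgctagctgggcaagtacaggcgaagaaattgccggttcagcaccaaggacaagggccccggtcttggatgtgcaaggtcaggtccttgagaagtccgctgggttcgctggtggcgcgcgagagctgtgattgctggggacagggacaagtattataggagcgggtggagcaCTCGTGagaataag
Notch3 (chr17:32166891-32167140, minus strand): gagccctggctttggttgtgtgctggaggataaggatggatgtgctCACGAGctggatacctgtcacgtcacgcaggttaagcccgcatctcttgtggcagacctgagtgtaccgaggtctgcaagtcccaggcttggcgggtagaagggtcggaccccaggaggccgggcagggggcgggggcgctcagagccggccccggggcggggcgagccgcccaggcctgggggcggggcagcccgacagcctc
Notch1 (chr2:26503823-26504072, minus strand): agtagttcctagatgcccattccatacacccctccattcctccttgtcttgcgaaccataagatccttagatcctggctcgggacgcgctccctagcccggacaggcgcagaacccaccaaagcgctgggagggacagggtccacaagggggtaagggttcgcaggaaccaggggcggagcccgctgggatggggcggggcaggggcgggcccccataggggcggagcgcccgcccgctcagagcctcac
Dner and Notch3 had 1 match each to CACGNG and Notch1 had none. TGGGAA was found in 0 of the 8 member promoters. CACGNG was found in 6 of these 8 promoters, of 5 genes. Over all 32851 promoters of this length, 23.5% held CACGNG and 21.6% held TGGGAA. The promoter of Dner was 56.8% G and C, that of Notch3 68.8% and that of Notch1 66.0%, against a median of 52.4% over all promoters.

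On each array 48.2 to 65.5% of the spots were well above background. The sorted cells carried the podocyte markers. Nphs1 and Wt1, which encode nephrin and a podocyte transcription factor, were well above background on all 29 arrays, with group means from 6.27 to 8.21. Summed signals of the 10 podocyte markers ran from 1400 to 1880 in TdTomato cells at day 4 and from 2220 to 3670 at day 0. For the 15 endothelial markers the sums were 10.5 to 41.2 in TdTomato cells at day 4, 31.2 to 58.6 at day 7 and 10.2 to 18.9 at day 0. In this bulk RNA, fewer cells of a type and less RNA per cell cannot be told apart. The authors' own table has 2 columns, those of mouse MC221 at day 7, that did not match their scanner files, so the values of this mouse at day 7 are in doubt, and calls at day 7 that were lost without it are named. The sources do not say whether same-group mice were littermates, and p-values measure the spread between these samples.

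Before the toxin no member passed the test between TdTomato and EGFP cells. In this comparison 0 of 10 members and 0.0% of all genes passed limma's test at an adjusted p of 0.05, and 0 members and 74 genes had an unadjusted p under 0.05. Notch2 was bright, with means of 3.19 in TdTomato and 3.23 in EGFP cells, and Notch1 was at -0.19 and -0.27. Dner was not well above background on any of the 8 day 0 arrays. Within the 4 mice Hes1 was higher in TdTomato cells in 4, by 0.12 to 0.96, and Heyl lower in 4, by -1.24 to -0.57.

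After the toxin, most changes of these genes were seen in TdTomato cells. At day 1 against day 0, 3 members rose and 1 fell, where 51.8% of all genes were called. At day 4, 5 rose and 1 fell, where 57.3% were called, and at day 7 1 rose, where 19.4% were called. The median change of the 10 members was 0.06, 0.78 and 0.62 at days 1, 4 and 7, and that of all genes was -0.13, -0.29 and -0.14. In EGFP cells 1 member was called at day 1, where 0.0256% of all genes were called. At day 4 the count was 0, where 0.595% were called, and at day 7 it was 0, where 7.26% were called. At an unadjusted p under 0.05 the counts in EGFP cells were 3, 0 and 2 members. Over all 15626 genes these counts were 467, 1224 and 2995. These comparisons share the day 0 samples of their population.

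**Figure D1:**
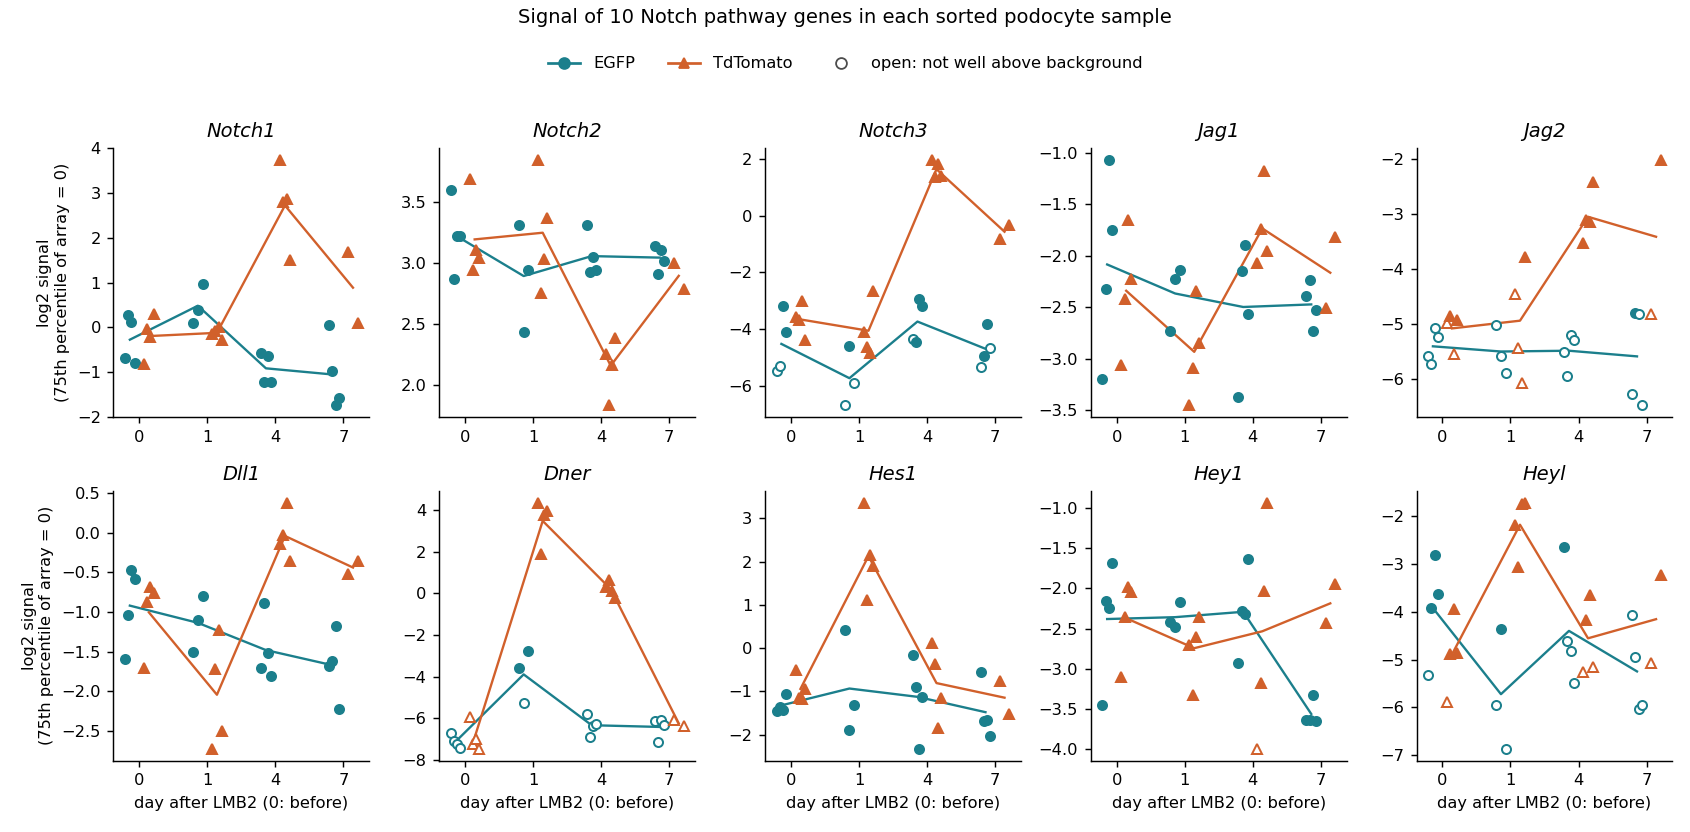
Log2 signal of each gene minus that array's 75th percentile (vertical axis) by day after LMB2 (horizontal axis), with 1 point per sample, circles for EGFP cells, triangles for TdTomato cells and lines through the group means. Open points were not well above background. Dner, Hes1 and Heyl peaked in TdTomato cells at day 1, while Notch1, Notch3, Jag2 and Dll1 had their highest group mean there at day 4.

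Among the receptors, Notch3 rose most. Its signals in TdTomato cells were -3.57, -3.67, -3.0 and -4.4 at day 0 and -4.09, -4.63, -4.85 and -2.67 at day 1. At day 4 they were 1.98, 1.38, 1.83 and 1.41. All 4 day 4 samples stood above all other samples of the study. The change from day 0 to day 4 was 5.31 ± 0.53 (SE), or 39.7-fold, with a limma adjusted p of 1.6e-08. It was 3.44 after normexp background correction, which adds an offset of 50 and so compresses the changes of dim probes. At day 7 the 2 samples were at -0.81 and -0.31, which is 3.10 ± 0.65 above day 0 (adjusted p = 0.0015), 3.35 without MC221 (adjusted p = 0.014) and 1.59 after normexp correction. The signal was lower at day 7 than at day 4, by -2.21 ± 0.65 (adjusted p = 0.016). Without MC221 this change was -1.96 and no longer passed the test (adjusted p = 0.13), and it was -2.45 without MC791 (adjusted p = 0.065).

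EGFP cells showed no such rise of Notch3. Their signals lay between -6.69 and -2.94 on all days, and the probe was well above background on 2, 1, 3 and 2 arrays at days 0, 1, 4 and 7. At day 4 EGFP cells of the 4 mice were at -4.36, -4.47, -2.94 and -3.17, so the ranges of both populations did not overlap. TdTomato cells were 5.39 ± 0.53 higher, or 41.8-fold, and higher in 4 of 4 mice by 4.59 to 6.34. At day 7 they were 17.6-fold higher (4.14 ± 0.65, adjusted p = 0.00011), 4.18 higher without MC221 (adjusted p = 0.0059) and 1.74 higher after normexp correction. At day 1 the difference was 1.67 ± 0.57 (adjusted p = 0.018) with overlapping samples. It was 1.21 with the mouse as a block (adjusted p = 0.068), 0.18 after normexp correction, and below the threshold of the test without mouse MC125, MC542 or MC831 (adjusted p = 0.13, 0.056 and 0.085).

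Notch1, the founding receptor of the family, rose in TdTomato cells at day 4. Its signals there were -0.82, -0.03, -0.22 and 0.3 at day 0, -0.15, -0.07, 0.01 and -0.27 at day 1, and 3.73, 2.79, 2.85 and 1.49 at day 4. The 4 day 4 samples lay above every sample of day 0 and day 1, and MC823 was the lowest of them. The change from day 0 was 2.91 ± 0.42, or 7.51-fold, with an adjusted p of 4.4e-06. At day 7 MC221 was at 1.68 and MC791 at 0.09, so this group of 2 was spread widely, and its mean was 1.08 ± 0.52 above day 0 (adjusted p = 0.15). The other Notch1 probe was well above background on 0 of 29 arrays and lay between -7.48 and -4.9, so the rise rests on 1 probe.

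In EGFP cells Notch1 had means of -0.27 at day 0, 0.49 at day 1, -0.91 at day 4 and -1.05 at day 7. No change from day 0 passed the test, with an adjusted p of 0.84 at day 4 and 0.34 at day 7. At day 1 TdTomato cells were lower than EGFP cells in 3 of 3 mice, by -0.96 to -0.25, and this difference was not called. TdTomato cells at day 4 were 12.3-fold above EGFP cells (3.63 ± 0.42), in 4 of 4 mice by 2.7 to 4.31. At day 7 the difference was 1.93 ± 0.52 (adjusted p = 0.022). This call was lost with the mouse as a block (1.33, adjusted p = 0.056) and without MC221 (1.5, adjusted p = 0.2), MC824 (1.7, adjusted p = 0.066) or MC943 (1.76, adjusted p = 0.069). The decline in TdTomato cells from day 4 to day 7 was -1.83 ± 0.52 (adjusted p = 0.012), and -1.03 without MC791 (adjusted p = 0.3).

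Notch2, the receptor that is required for podocyte formation in the embryo, moved the other way. In TdTomato cells it was at 3.69, 2.94, 3.11 and 3.04 at day 0, at 3.85, 2.75, 3.03 and 3.37 at day 1, and at 2.25, 1.83, 2.16 and 2.38 at day 4. The day 4 values lay below every other sample of the study. The change from day 0 to day 4 was -1.04 ± 0.22, or 2.06-fold lower, with an adjusted p of 0.00032. The second Notch2 probe, which was above background on 29 arrays, gave a change of -0.67 that missed the threshold (adjusted p = 0.098) when each probe was tested. For TdTomato against EGFP cells at day 4 it gave -0.41 (adjusted p = 0.32), so the fall of Notch2 rests on 1 of its 2 probes. At day 7 against day 0 the 2 probes gave 0.37 and -0.3, neither of them called. EGFP cells at day 4 had signals of 3.31, 2.93, 3.05 and 2.94, and TdTomato cells of the same 4 mice were lower by -1.1 to -0.56. At day 7 TdTomato cells were back at 3.0 and 2.79, a rise of 0.74 ± 0.27 from day 4 (adjusted p = 0.046). This last call was lost under 9 of 17 alternatives, among them leaving out MC221 (0.63, adjusted p = 0.24), MC791 (0.85, adjusted p = 0.12), MC692 (0.63, adjusted p = 0.12), MC151 (0.77, adjusted p = 0.062) or MC822 (0.74, adjusted p = 0.063). With the mouse as a block Notch2 was also called at day 1, 0.32 higher in TdTomato cells (adjusted p = 0.038), against 0.36 without the block (adjusted p = 0.23).

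**Figure D2:**
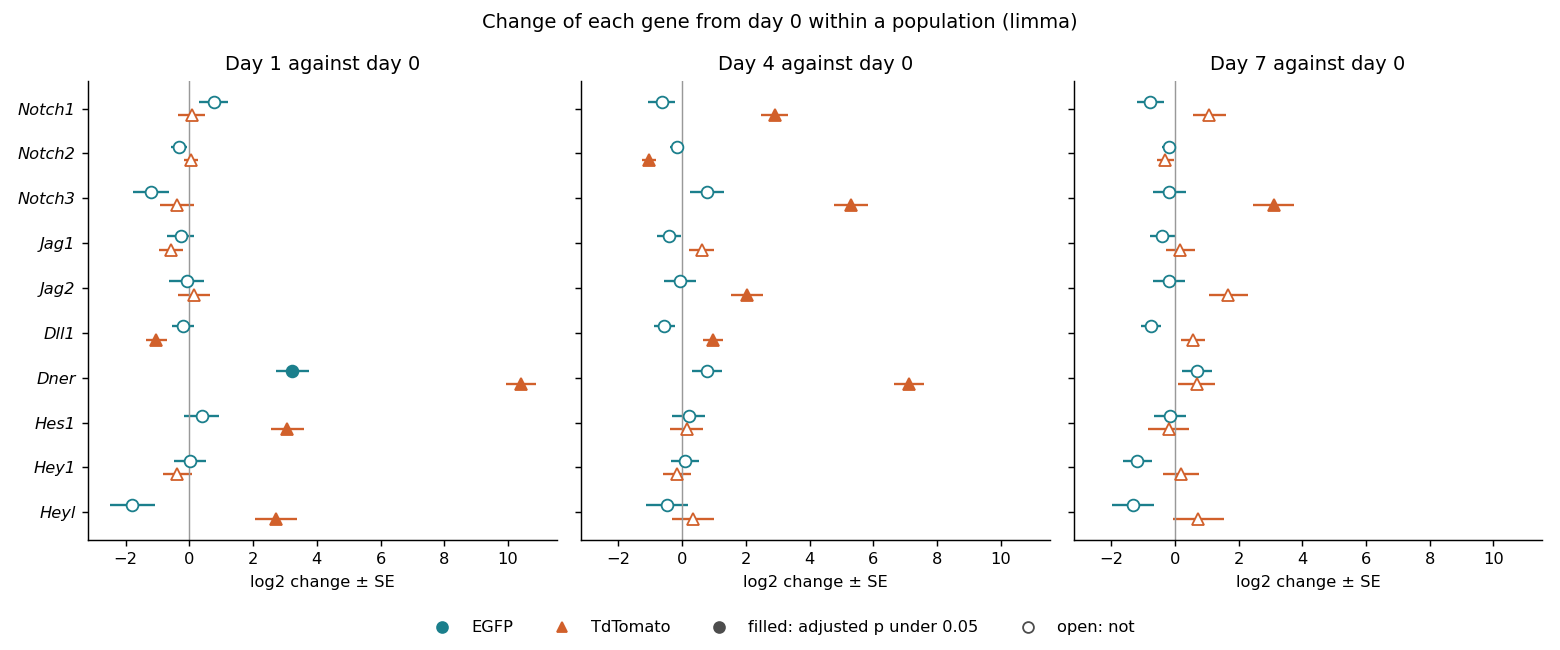
Log2 change from day 0 with its SE (horizontal axis) for each of the 10 genes (vertical axis) at days 1, 4 and 7, from limma, with circles for EGFP and triangles for TdTomato cells. Filled points passed an adjusted p of 0.05. The only filled circle is Dner at day 1, and the only gene lower in TdTomato cells at day 4 among the filled points is Notch2 at -1.04.

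Of the ligands, Dner had the widest range. On the day 0 arrays it gave between -7.46 and -5.96 in both populations and was never well above background. TdTomato cells at day 1 had signals of 4.33, 1.9, 3.74 and 3.95. At day 4 they had 0.3, 0.63, 0.1 and -0.22, and at day 7 -6.1 and -6.4, which were again not well above background. A group that was not measurable gives only a bound, set at the higher of the lowest measurable signal of each array and the probe's own. With this bound Dner was at least 377-fold higher at day 1 than at day 0 and at least 38.8-fold higher at day 4. It was at least 31.4-fold lower at day 7 than at day 4. The fitted log2 changes from day 0 were 10.4 at day 1 (limma adjusted p = 3.5e-14) and 7.13 at day 4 (adjusted p = 1.1e-11). After normexp correction they were 5.42 and 2.41. From day 4 to day 7 the fitted change was -6.45 (adjusted p = 1.3e-07). Dner was well above background on 10 of 29 arrays, all of TdTomato cells at days 1 and 4 or EGFP cells at day 1. It passed the filter through these groups alone, and the p-values set them against signals not well above background. From day 1 to day 4 the signal fell by 3.28 on the log2 scale, with no overlap between the groups.

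EGFP cells also had a Dner signal at day 1. It was -3.61 in MC125, -5.29 in MC541, where it was not well above background, and -2.79 in MC542. TdTomato cells of these mice were at 4.33, 1.9 and 3.74, so MC541 was the lowest in both populations, and the difference within a mouse was 6.53 to 7.94. With MC541 counted at its own signal, the bound for EGFP cells at day 1 was 2.33-fold above day 0. The fitted log2 change was 3.23 (limma adjusted p = 0.011). This call was lost after normexp correction (0.47, adjusted p = 1.0), in a fit of both groups alone (adjusted p = 0.56), and without MC125 (adjusted p = 0.076), MC542 (adjusted p = 0.2), MC731 (adjusted p = 0.053), MC742 (adjusted p = 0.064) or MC753 (adjusted p = 0.054). At day 4 EGFP cells were between -6.91 and -5.78, none well above background.

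Jag2, a ligand of the Jagged type, was dim throughout. It was well above background on 9 of 29 arrays, among them all 4 of TdTomato cells at day 4. These had signals of -3.53, -3.12, -3.14 and -2.42, against -4.98, -4.86, -5.54 and -4.93 at day 0, and the groups did not overlap. The rise was 2.03 ± 0.50, or 4.07-fold, with an adjusted p of 0.0014. It was 0.26 after normexp correction, which ended the call (adjusted p = 0.23), as it did for TdTomato against EGFP cells at day 4 (0.37, adjusted p = 0.08). EGFP cells were not well above background at day 4, and TdTomato cells stood at least 2.69-fold higher. At day 7 MC791 was at -2.02 and MC221, not well above background, at -4.81. The day 7 mean was 1.67 ± 0.61 above day 0 (adjusted p = 0.058), which was called with the mouse as a block (1.63, adjusted p = 0.042) and without MC221 (3.06, adjusted p = 0.0033). Against EGFP cells the day 7 difference was 2.17 ± 0.61 (adjusted p = 0.029), 3.34 without MC221 and 0.78 without the TdTomato sample of MC791 (adjusted p = 0.54). That call also ended without the EGFP sample of MC221 (1.95, adjusted p = 0.058) or of MC943 (1.88, adjusted p = 0.1).

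Dll1, the Delta-like ligand, fell first and then rose in TdTomato cells. At day 0 its signals were -1.71, -0.87, -0.68 and -0.76, at day 1 -2.72, -1.72, -1.23 and -2.5, and at day 4 -0.15, -0.03, 0.37 and -0.36. All samples of day 4 lay above those of day 0, whereas day 1 overlapped day 0 through MC122. The changes from day 0 were -1.04 ± 0.32 at day 1 (adjusted p = 0.0081) and 0.96 ± 0.32 at day 4 (adjusted p = 0.013), and the latter was 0.73 without MC122 (adjusted p = 0.065). After normexp correction they were -0.67 and 0.62, and both remained past the threshold. Between day 1 and day 4 the signal rose 4.00-fold (2.0 ± 0.32). TdTomato cells were 0.91 lower than EGFP cells at day 1, a log2 difference of -0.91 ± 0.34 (adjusted p = 0.031) that missed the threshold without MC125, MC541, MC542 or the unpaired MC831 (adjusted p = 0.12, 0.074, 0.14 and 0.098). They were 2.71-fold higher at day 4 (1.44 ± 0.32, adjusted p = 0.00049), in 4 of 4 mice. At day 7 the difference of 1.24 ± 0.39 had an adjusted p of 0.057, and it passed with the mouse as a block (1.21, adjusted p = 0.0067) and without MC824 (1.40, adjusted p = 0.042).

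Jag1, the other Jagged ligand, changed little. Its signals ran from -3.45 to -1.07 over all 29 arrays, all well above background, and neighbouring groups in the order of means overlapped throughout. The 1 call was between days 1 and 4 in TdTomato cells, from a mean of -2.93 to -1.73 (1.20 ± 0.38, adjusted p = 0.010), and quantile normalization ended it (0.95, adjusted p = 0.073). TdTomato cells were above EGFP cells in 4 of 4 mice at day 4, by 0.42 to 1.3. This difference of 0.76 ± 0.38 missed the threshold (adjusted p = 0.085) and passed it with the mouse as a block (adjusted p = 0.0018) or without the EGFP sample of MC822 (0.96, adjusted p = 0.044). At day 1 TdTomato cells were lower in 3 of 3 mice, by -0.57 ± 0.41 (adjusted p = 0.27), and by -0.59 with the mouse as a block (adjusted p = 0.022). After normexp correction the fall from day 0 to day 1 in TdTomato cells passed as well (-0.43, adjusted p = 0.038).

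Of the target genes, Hes1, a repressor of transcription that Notch switches on, rose at day 1 in TdTomato cells. Its signals there were -0.5, -1.15, -1.18 and -0.94 at day 0 and 3.35, 1.12, 2.15 and 1.89 at day 1. At day 4 they were 0.13, -0.37, -1.84 and -1.15, and at day 7 -0.76 and -1.53. The 4 day 1 samples lay above all other samples of the study. The change from day 0 was 3.07 ± 0.51, or 8.41-fold, with an adjusted p of 1.9e-05, and from day 1 to day 4 Hes1 fell by 2.93 on the log2 scale (adjusted p = 4.1e-05). EGFP cells at day 1 gave 0.41, -1.9 and -1.31, where MC125 was the highest of the EGFP samples on any day and also the highest of the TdTomato samples. TdTomato cells were higher by 2.95 to 3.46 in 3 of 3 mice.

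Heyl, a target gene of the Hey family, also rose at day 1 in TdTomato cells. It was well above background on 15 of 29 arrays. TdTomato cells had signals of -5.88, -4.89, -3.94 and -4.86 at day 0 and of -2.18, -3.07, -1.74 and -1.73 at day 1, with no overlap. The rise was 2.71 ± 0.66, or 6.56-fold (adjusted p = 0.0012), and 0.6 after normexp correction (adjusted p = 0.014). EGFP cells at day 1 were at -5.94, -4.37 and -6.86, and only the middle value was well above background. At day 0 EGFP cells ran from -5.32 to -2.82 and so overlapped TdTomato cells of day 1. The EGFP mean went from -3.92 at day 0 to -5.73 at day 1, a change that was not called. The log2 difference of TdTomato from EGFP cells at day 1 was 3.55 ± 0.71 (adjusted p = 0.00019), and 0.78 after normexp correction (adjusted p = 0.0036). At day 4 they had gone back to a mean of -4.56 (-2.38 ± 0.66, adjusted p = 0.0042).

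Hey1, the other Hey gene, was called in none of the 17 comparisons. In TdTomato cells its means were -2.37, -2.74, -2.53 and -2.18 at days 0, 1, 4 and 7, and single samples at day 4 ran from -3.99 to -0.94. EGFP cells at day 7 were at -3.63, -3.63, -3.33 and -3.65, and 3 of these 4 samples lay below the whole day 0 range of -3.45 to -1.68. Their change from day 0 was -1.18 ± 0.45 (adjusted p = 0.13), and it was -1.53 without the EGFP sample of MC122 (adjusted p = 0.045). A fit that kept the slide as a block gave -1.02 (adjusted p = 0.030). At day 7 TdTomato cells were 1.38 ± 0.56 higher than EGFP cells (adjusted p = 0.15), and 1.45 higher with the mouse as a block (adjusted p = 0.032).

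**Figure D3:**
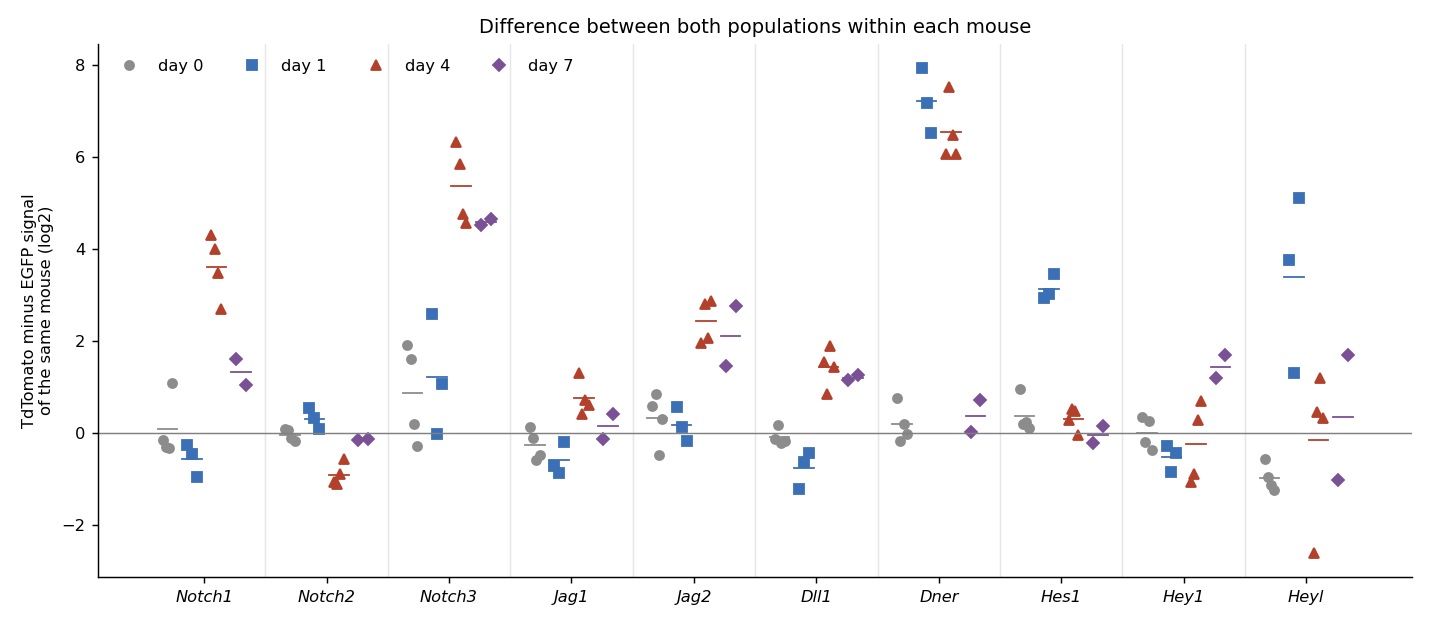
TdTomato minus EGFP log2 signal of the same mouse (vertical axis) for each gene (horizontal axis), with 1 point per mouse, a bar at the mean, and colours and shapes for days 0, 1, 4 and 7. At day 4 Notch3 was 4.59 to 6.34 higher in TdTomato cells and Notch2 lay below 0 in all 4 mice, while Hes1 was 2.95 to 3.46 higher at day 1.

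Set against EGFP cells of the same day, 4 members were higher and 1 lower in TdTomato cells at day 1, where 49.3% of all genes were called. At day 4, 5 were higher and 1 lower, where 59.6% were called, and at day 7 3 were higher, where 6.99% were called. The change from day 0 was also compared between the populations. At day 1 this difference was called for Dner (7.17 ± 0.69), Hes1 (2.68 ± 0.75) and Heyl (4.52 ± 0.97), where 38.4% of all genes were called. The value for Heyl holds both its rise in TdTomato cells and its lower mean in EGFP cells at day 1 (-5.73) than at day 0 (-3.92). At day 4 it was called for Dner (6.34 ± 0.67), Notch3 (4.52 ± 0.75), Notch1 (3.55 ± 0.60), Jag2 (2.10 ± 0.71), Dll1 (1.52 ± 0.45) and Notch2 (-0.87 ± 0.31), where 44.4% were called. Limma's adjusted p for Notch2 was 0.025, and the call was lost with the mean of both probes (-0.67, adjusted p = 0.1) and without the TdTomato samples of MC122 (-0.71) or MC692 (-0.77) or the EGFP samples of MC731 (-0.75) or MC151 (-0.79). At day 7 it was called for Notch3 alone (3.28 ± 0.84, adjusted p = 0.030), where 2.69% were called. Leaving out MC221, MC791, MC731, MC742, MC753 or MC943 ended this call, with values from 2.84 to 3.53. With the mouse as a block 3 members were called at day 7, Jag2 (1.79, adjusted p = 0.050) and Dll1 (1.29, adjusted p = 0.024) beside Notch3, and Dll1 passed at day 1 (-0.67, adjusted p = 0.037) and Jag1 at day 4 (1.02, adjusted p = 0.0035). Jag1 at day 4 also passed without the EGFP sample of MC122 (1.39, adjusted p = 0.025), and Jag2 at day 7 without MC221 (3.02, adjusted p = 0.043). Normexp correction gave 0.16 for Jag2 (adjusted p = 0.64), 2.25 for Dner and 0.97 for Dll1 at day 4, 0.85 for Heyl at day 1 and 1.5 for Notch3 at day 7, and quantile normalization gave 1.64 for Jag2 (adjusted p = 0.1) and 3.23 for Notch3 (adjusted p = 0.076).

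The arrays lay on 4 slides, each with 1 sample of TdTomato cells from days 0, 1 and 4. The members called at day 1 or day 4 against day 0 in these cells changed in the same direction on 4 of 4 slides. For all of these except Dll1 at day 1 the groups did not overlap, so the direction on each slide was given by that. At day 1 the difference within a slide was 9.16 to 11.41 for Dner, 2.28 to 3.86 for Hes1, 1.82 to 3.7 for Heyl and -1.74 to -0.55 for Dll1. At day 4 it was 4.83 to 5.81 for Notch3, 1.19 to 4.56 for Notch1, 6.26 to 7.89 for Dner, 1.45 to 2.51 for Jag2, 0.4 to 1.55 for Dll1 and -1.44 to -0.67 for Notch2.

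The steps between days put the members' changes in order. From day 1 to day 4 in TdTomato cells 9 of 10 members were called, 5 higher (Notch1, Notch3, Jag1, Jag2 and Dll1) and 4 lower (Notch2, Dner, Hes1 and Heyl), where 50.4% of all genes were called. From day 4 to day 7 Notch2 was higher and Notch1, Notch3 and Dner were lower, where 24.5% were called. Without MC221 this count was 2 members, and without MC791 it was 1. In EGFP cells Dner was lower at day 4 than at day 1 (adjusted p = 0.031), where 0.294% were called. That call was lost after normexp correction and without MC125, MC542, MC692, MC822 or MC823 (adjusted p = 0.13, 0.35, 0.11, 0.095 and 0.073). From day 4 to day 7 0 members were called in EGFP cells by limma, where 4.68% of all genes were called. At an unadjusted p under 0.05 the counts were 1 member and 2322 of 15626 genes.

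Signals of the members across the 29 arrays fell along these courses, and the coefficients are descriptions over samples that share groups and mice. Notch3 had an r of 0.82 with Jag2 and 0.72 with Notch1. Dner and Hes1 had an r of 0.77, and Dll1 and Jag1 one of 0.78. Notch2 had an r of -0.69 with both Notch1 and Dll1. Among all genes tested, those with the highest r to Notch3 were Robo4 (0.947), Snai2 (0.937) and Serpinf1 (0.932). The nearest genes to Dner were Arhgef4 (0.976), Pde4a (0.972) and Ptprn (0.972), and to Hes1 they were Rhof (0.956), Fbxl22 (0.944) and Csf1r (0.929). Notch1 had its nearest values in Pnma2 (0.996), Ermn (0.99) and Slc16a7 (0.977), and Jag2 in Id1 (0.884), Slc12a5 (0.859) and Gchfr (0.852). For Notch2 they were Prx (0.956), Wbp1l (0.955) and Cactin (0.95), for Jag1 Fndc3a (0.867), Efnb2 (0.849) and Ttc7b (0.809), and for Dll1 Lmln (0.87), Klhl28 (0.866) and Wdr76 (0.853). Hey1 had lower coefficients, with Notch4 (0.724), Hyal1 (0.723) and Arhgef3 (0.7), as had Heyl with Pid1 (0.799), Slc24a3 (0.793) and Zscan2 (0.779).

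Markers of other glomerular cells moved in the same samples as Notch3, which vascular wall cells also express. In TdTomato cells against day 0, 51.8% of all genes were called at day 1, 57.3% at day 4 and 19.4% at day 7. Of the 15 endothelial markers, 5 rose and 0 fell in TdTomato cells at day 4 against day 0, and 9 rose and 0 fell at day 7, or 6 and 0 without MC221. Robo4, an endothelial receptor, rose by 3.92 ± 0.74 at day 4 and Pecam1 by 1.33 ± 0.39. Cdh5, which encodes the cadherin of endothelial junctions, had means of -3.07 at day 0, -1.89 at day 4 and 0.7 at day 7. Its samples were spread widely at day 4 (SD 2.74). Summed endothelial signal at day 7 (31.2 to 58.6) overlapped that at day 4 (10.5 to 41.2). Kdr, the endothelial VEGF receptor, had means of 3.01 at day 0 and 2.41 at day 4. Of the 10 measured markers of mesangium and smooth muscle, 2 rose and 1 fell at day 4, and their summed signal ran from 1.78 to 5.46 at day 4 and from 2.89 to 6.2 at day 0. Myh11, the smooth muscle myosin, went from -5.56 to -1.97 (3.58 ± 0.56), while Pdgfrb, the defining mesangial receptor, fell by 1.49 on the log2 scale. Of the 9 measured leukocyte markers 2 rose and 1 fell at day 1, where Hes1 and Heyl rose, and their summed signal ran from 84.7 to 267.0 at day 1 and from 40.4 to 59.6 at day 0. Csf1r, a growth factor receptor of macrophages, rose by 3.15 ± 0.29, and Ptprc, the pan-leukocyte marker, had group means between -4.99 and -4.55 throughout, near the limit of measurement. Of 11 tubular markers of the proximal segment 3 rose and 0 fell at day 4. Their summed signal ran from 4.58 to 193.0 with a median of 5.18, against 1.12 to 16.7 with a median of 5.45 at day 0. Of 5 markers of the distal nephron 1 rose and 1 fell at day 4, and of 7 of the parietal epithelium 3 rose and 3 fell. The 10 podocyte markers fell in 7, 8 and 5 cases at days 1, 4 and 7, and in 2 at day 7 without MC221. The part of these markers in the changes of the members was not tested.

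The wider pathway was read from 55 further genes, of which 50 passed the filter. The ligand Mfap5 and the targets Hes3 and Nrarp were too dim, and the ligand Dlk2 had no named probe. In TdTomato cells 9 were higher and 18 lower at day 1, 10 higher and 21 lower at day 4, and 6 higher and 1 lower at day 7, or 3 and 0 without MC221. Over all genes 51.8%, 57.3% and 19.4% were called in these comparisons, and the shares of the list lie near them. In EGFP cells 0 were called at days 1 and 4 by limma, and 3 were higher at day 7, or 2 without MC221. The median change of the 50 genes in TdTomato cells was -0.22, -0.43 and -0.22 at days 1, 4 and 7, against -0.13, -0.29 and -0.14 over all genes.

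Of the 16 measured genes that process the receptors or modify them with sugars, 2 were higher and 10 lower at day 1, 1 was higher and 12 lower at day 4, and 2 were higher and 1 lower at day 7. Over all 15626 genes 4365 were lower at day 1, 5611 at day 4 and 1323 at day 7. Psen2, a catalytic part of the gamma-secretase that frees the intracellular domain, went from 1.47 to -0.78 at day 1 (-2.25 ± 0.17), and Aph1b, another subunit, from 1.04 to -1.15. Neurl1a, a ubiquitin ligase that acts on ligands, rose 8.16-fold at day 1 (3.03 ± 0.29). At day 4 the ubiquitin ligases Neurl1b (-1.35 ± 0.24) and Mib2 (-1.15 ± 0.18) were lower, and the sugar transferase Mfng was 2.30-fold higher. At day 7 Lfng, also a sugar transferase, was higher in both populations, by 1.36 ± 0.30 in TdTomato and 1.83 ± 0.24 in EGFP cells, and Neurl1a was higher in both, by 1.05 ± 0.35 and 1.65 ± 0.29. Mib2 was lower in TdTomato cells at day 7 (-0.74 ± 0.22). Without MC221 the calls of Mib2 (-0.75, adjusted p = 0.12) and of Neurl1a in TdTomato cells (0.96, adjusted p = 0.22) were lost, while Lfng in both populations and Neurl1a in EGFP cells passed.

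Of the 7 further ligands measured, 1 was higher at day 1, 3 at day 4 and 2 at day 7 against day 0 in TdTomato cells, and 0 were lower, where 51.8%, 57.3% and 19.4% of all genes were called. Cntn1 rose 2.85-fold at day 1. Dll3 rose 9.21-fold at day 4, from -3.27 to -0.07 (3.20 ± 0.38, limma adjusted p = 2.8e-07), with no overlap, while Ccn3 (at least 1.49-fold) and the endothelial ligand Dll4 (1.67 ± 0.71) were called with overlapping samples. Egfl7, a secreted protein of endothelium, was 14.0-fold higher at day 7 and Mfap2 5.50-fold. Without MC221 Egfl7 missed the threshold (4.11, adjusted p = 0.084) and Mfap2 passed it (2.85, adjusted p = 0.012). Notch4, the receptor of endothelium and the only further receptor, was called in no comparison with day 0, and was 1.51 ± 0.43 higher in TdTomato than in EGFP cells at day 7 (adjusted p = 0.034). Without MC221 this difference was 1.97 and missed the threshold (adjusted p = 0.054).

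**Figure D4:**
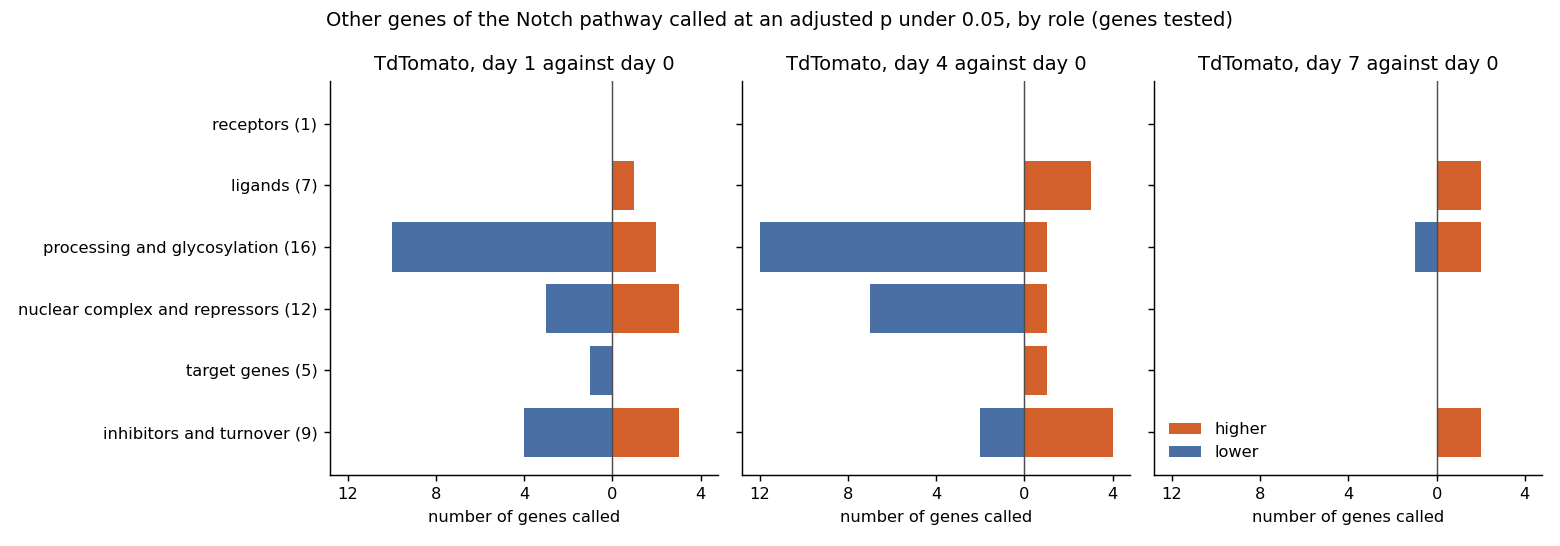
Number of the 50 further pathway genes called higher (orange, to the right) or lower (blue, to the left) in TdTomato cells at days 1, 4 and 7 against day 0, by role, with the number of genes tested in brackets. The processing genes had 10 lower calls at day 1 and 12 at day 4.

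Inhibitors and turnover factors moved in both directions. Of 9 measured, 3 were higher and 4 lower at day 1, where 51.8% of all genes were called, and 4 higher and 2 lower at day 4, where 57.3% were. Dtx1, which encodes a Notch-binding ubiquitin ligase, was not well above background on any array at day 0 and was at least 6.12-fold higher at day 1 and at least 11.2-fold higher at day 4 in TdTomato cells. Numbl, related to the Notch inhibitor Numb, rose 12.9-fold at day 1 (3.69 ± 0.28) and stood 2.24-fold above day 0 at day 4. Dtx3l fell at day 1 (-1.44 ± 0.17), and Dtx3 rose 6.79-fold at day 4 and was 2.94-fold higher at day 7. Dtx4 was higher at day 7 in TdTomato (0.94 ± 0.30) and in EGFP cells (0.91 ± 0.24). Without MC221 both calls of Dtx4 were lost (0.65, adjusted p = 0.29, and 0.73, adjusted p = 0.085), and Dtx3 passed in TdTomato cells (2.04, adjusted p = 0.0026).

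Of the 12 genes of the nuclear complex and its repressors 3 were higher and 3 lower at day 1, where 51.8% of all genes were called, and 1 was higher and 7 lower at day 4, where 57.3% were. The adaptor Snw1 (1.31 ± 0.14) and the coactivator Maml1 (1.18 ± 0.23) rose at day 1, and the acetyltransferase Kat2b fell (-1.80 ± 0.35 at day 1 and -0.89 ± 0.35 at day 4). Maml3, another coactivator, was lower at day 4 (-0.97 ± 0.19). Of 5 further genes listed as targets, Hes6 was 4.66-fold lower at day 1 (-2.22 ± 0.18) and Hes2 was 4.29-fold higher at day 4 with overlapping samples. None of the 5 was called at day 7. Whether Notch regulates these genes in podocytes was not tested.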

How the data were processed

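Per the labels' protocols, podocytes were sorted by colour, their RNA was labelled with Cy3 and each sample was hybridised to 1 array. The deposited scanner files hold spot intensity from Agilent Feature Extraction 11.5.1.1, per the submitters' processing notes, and its processed signal is background-subtracted, per the file headers. The authors' deposited table of log2 values covers 39430 probes, with scale, centring and reference unstated (column medians -3.18 to -2.33). Of its 29 columns, 27 matched their scanner file and the 2 of mouse MC221 at day 7 matched none, so it served only as an alternative.

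Here log2 signal minus the 75th percentile of each array was used, after control spots (of 62976, 59305 remained) and flagged outliers were left out and spots of a probe were averaged. Of 55681 probes, 26582 had 1 gene symbol and 29099 none. A probe had to be well above background on 3 of 29 arrays, and the brightest probe stood for a gene. Among the tested genes 48 values were missing. Limma 3.58.1 in R 4.3.3 fitted 8 group means over 29 arrays for 17 comparisons, with Benjamini-Hochberg adjustment over 15626 genes and a threshold of 0.05; the method was tested on simulated data. The number of arrays limits the precision. Alternatives were normexp (offset 50, on the median signal because the planned mean signal is not a column of the files), quantile normalization, other filters, the authors' values, the mean of probes, each probe tested, the slide or the mouse as a block, only the groups compared, each sample left out and, added after the data were seen, MC221 left out. Both samples of a mouse come from 1 animal, and their deviations correlated at 0.04 to 0.64.

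The members and lists were chosen with earlier results of these data known. All members were described, with at most 3 further pathway genes per role and comparison, those called with the largest change, the 3 genes nearest to each member by correlation, and the defining markers of 7 cell types; other genes named from the marker lists were chosen after their values were seen. Promoters are those of RefSeq on GRCm38.p6. Some genes of these lists are not reported here.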

Additional observations from a re-analysis of the deposited data

Results flagged for a closer look

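In EGFP cells at day 7 the Hey1 signal of mouse MC824 was -3.33, and the other 3 samples lay close together between -3.65 and -3.63. It was flagged because of that closeness, as the SD of this group was only 0.16, against 0.17 to 1.33 in the other Hey1 groups. It was the 1 such sample in 53 groups checked. Chance alone gives about 1 in 20 groups, so this is not more than chance gives.

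The change from day 0 differed between TdTomato and EGFP cells by limma's interaction for 8 members. At day 1 the difference was 7.17 for Dner, 4.52 for Heyl and 2.68 for Hes1. At day 4 it was 6.34 for Dner, 4.52 for Notch3, 3.55 for Notch1, 2.10 for Jag2, 1.52 for Dll1 and -0.87 for Notch2. At day 7 it was 3.28 for Notch3.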

How the results depend on the processing

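Of 50 calls of members over 17 comparisons, 33 were kept under every alternative run, and no call changed direction. Where each probe was tested, the probe with the lowest adjusted p stood for its gene, so a second probe that disagreed could not end a call. The 33 thus include the fall of Notch2 in TdTomato cells at day 4 against day 0, day 1 and EGFP cells. Its second probe missed limma's threshold in these comparisons (adjusted p = 0.098, 0.081 and 0.32). In EGFP cells the count of members called at day 1 went from 1 to 0 with normexp correction or only the groups compared, at day 7 from 0 to 2 with the slide as a block, between days 1 and 4 from 1 to 0 with normexp correction, each probe tested or only the groups compared, and between days 4 and 7 from 0 to 1 with the slide as a block or only the groups compared. In TdTomato cells the count at day 7 went from 1 to 2 with the authors' values, the slide as a block, the replicate block (the mouse) or without MC221, and between days 4 and 7 from 4 to 2 with only the groups compared or without MC221. Between populations it went from 5 to 3 at day 1 with only the groups compared and from 3 to 5 at day 7 with the slide as a block. For the difference of the changes at day 7 it went from 1 to 0 with quantile normalization, to 2 with the authors' values or the slide as a block, and to 3 with the replicate block, which pairs both samples of a mouse. Leaving out each sample in turn gave 0 to 1 members in EGFP cells at days 1 and 7 and between days 1 and 4, 1 to 2 in TdTomato cells at day 7 and 1 to 4 between days 4 and 7, 3 to 5 and 1 to 3 between populations at days 1 and 7, and 0 to 1 for the difference of the changes at day 7. The cause of these moves was not tested, apart from fewer samples where samples were left out.

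Over all genes, counts that moved by more than 1.5 times were as follows. Normexp correction gave 0 for 4 genes in EGFP cells at day 1, 54 for 93 at day 4, 26 for 46 between days 1 and 4, and 173 for 420 in the difference at day 7. The authors' values gave 1928 for 1092 between populations at day 7 and 657 for that difference, and the replicate block 1690 and 705. The slide as a block gave 277 and 2600 for 93 and 1134 in EGFP cells at days 4 and 7, 106 for 46 and 1844 for 731 between successive days, 4978 for 3026 in TdTomato cells at day 7, 6693 for 3836 between days 4 and 7, 2228 between populations at day 7 and 844 for the difference. Only the groups compared gave 0, 28 and 7 in EGFP cells at days 1 and 4 and between them, and 1847 and 1943 in TdTomato cells at day 7 and between days 4 and 7. The split into higher and lower genes moved by over 10 percentage points in comparisons that use day 7. In TdTomato against EGFP cells it was 967 and 125 and became 799 and 524 with normexp correction and 1281 and 647 with the authors' values. In TdTomato cells against day 0 it was 1703 and 1323 and became 1343 and 1691 with normexp correction. Dim probes such as Jag2, Heyl, Notch3 and Dner are limited by their signal over background, and day 7 in TdTomato cells rests on 2 mice.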
